A study of Mus musculus with 12 samples.

Results

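The 38 genes described here act in meiotic prophase. They were chosen by name and function, with earlier results of these data known. They comprise the building blocks of the synaptonemal complex and of meiotic cohesin, the enzymes of programmed DNA breakage, strand invasion and crossing over, the proteins that fasten telomeres to the nuclear envelope, and a small number of germ cell regulators that act around meiotic entry. All 38 symbols were present among the 35976 gene symbols counted. RNA was sequenced from whole testes of mouse embryos at E15.5, with 12 libraries in 4 groups of 3. Each library was a pool of testes from 3 embryos of outbred Swiss (RjOrl) stock. The F0 dams were gavaged daily with oil alone (0 mg/kg/day) or with 6 mg/kg/day of thiacloprid (*thia*), a neonicotinoid insecticide, from E6.5 to E15.5. The F1 embryos were themselves exposed in the womb. The F3 embryos descended from F1 and F2 males mated with untreated, unrelated females, the control line being bred in the same way, so that F3 animals had only an ancestral exposure. The groups are called F1 control, F1 *thia*, F3 control and F3 *thia*, and by their labels a *thia* group and its control differ in the F0 treatment. Whole organs were used, so germ cells are one of several cell types in each pool.

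In meiotic prophase, homologous chromosomes are held along a cohesin-based axis, broken on purpose, repaired against each other and zipped together by the synaptonemal complex, whose lateral elements lie on the axes and whose transverse filaments and central element bridge them. In the mouse ovary germ cells enter this programme before birth, whereas in the testis the germ cells of this age are prospermatogonia in mitotic arrest, and meiosis begins only after birth. Transcripts of many meiotic genes are nevertheless known in fetal male germ cells, and loss of DNA methylation at their promoters during germline reprogramming is one of several steps in the activation of a group of germline genes. Outside the germline, several of these promoters are held silent by repressors that read the E-box and E2F motifs.

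Promoter sequences are shown first. The choice of genes did not use these 2 motifs, but the motifs were picked because promoters of germline genes are known for them. RefSeq promoter windows (GRCm38.p6, 250 bases before to 50 after the start) were matched for 32 of the 38 genes. The letters CACGTG, the E-box, which reads the same on both strands, were found for 10 of the 32 genes (31.25%) and for 8.09% of all 27025 genes with a window. The E2F letters TTCCCGC, searched on both strands (as GCGGGAA on the other), were found for 12 of the 32 genes (37.5%) and for 5.29% of all genes. Both motifs were present for 6 genes (18.75%, against 0.611% of all genes), namely *Hormad1*, *Syce2*, *Tex12*, *Rnf212*, *Sycp3* and *Stag3*, and at least 1 motif for 16 genes (50%, against 12.8%). The median number of CpG dinucleotides was 19 per window for these genes and 7 over all 32851 windows, and the motif shares were not matched for CpG content. The 200 bases before the start are printed 5′ to 3′ on the strand of the gene, with motif letters in capitals, for 2 genes with both motifs (*Hormad1*, *Sycp3*), 2 with the E-box alone (*Sycp1*, *Taf7l*), 1 with the E2F letters alone (*Smc1b*) and 1 with neither (*Dmc1*).
Hormad1: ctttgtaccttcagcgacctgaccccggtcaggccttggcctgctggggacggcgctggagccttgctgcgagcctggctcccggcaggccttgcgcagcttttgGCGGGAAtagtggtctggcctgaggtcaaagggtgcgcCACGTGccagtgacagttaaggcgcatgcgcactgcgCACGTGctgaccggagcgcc
Sycp3: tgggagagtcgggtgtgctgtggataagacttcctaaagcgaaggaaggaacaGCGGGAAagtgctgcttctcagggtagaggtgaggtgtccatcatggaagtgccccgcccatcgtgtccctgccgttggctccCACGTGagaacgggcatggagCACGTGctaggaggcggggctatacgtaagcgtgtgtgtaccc
Sycp1: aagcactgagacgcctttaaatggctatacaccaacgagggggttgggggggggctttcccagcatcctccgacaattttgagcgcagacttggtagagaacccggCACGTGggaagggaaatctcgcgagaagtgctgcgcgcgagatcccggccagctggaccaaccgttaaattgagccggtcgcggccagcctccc
Taf7l: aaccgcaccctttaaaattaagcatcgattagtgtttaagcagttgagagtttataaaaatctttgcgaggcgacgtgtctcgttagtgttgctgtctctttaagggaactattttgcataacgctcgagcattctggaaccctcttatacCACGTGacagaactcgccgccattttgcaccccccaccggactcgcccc
Smc1b: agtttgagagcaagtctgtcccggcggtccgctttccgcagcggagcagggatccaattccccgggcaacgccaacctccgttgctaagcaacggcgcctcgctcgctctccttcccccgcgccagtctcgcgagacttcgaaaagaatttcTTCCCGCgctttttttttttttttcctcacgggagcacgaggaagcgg
Dmc1: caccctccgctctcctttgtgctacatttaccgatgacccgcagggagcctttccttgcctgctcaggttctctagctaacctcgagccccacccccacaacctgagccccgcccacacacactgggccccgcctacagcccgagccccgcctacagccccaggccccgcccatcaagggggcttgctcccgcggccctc
The *Hormad1* stretch is chr3:95559477-95559676 (plus strand), with E-boxes centred 54.5 and 17.5 bases before the start. The *Sycp3* stretch is chr10:88459387-88459586 (plus strand), with E-boxes centred 61.5 and 40.5 bases before the start. The *Sycp1* stretch is chr3:102936101-102936300, that of *Smc1b* is chr15:85131958-85132157, that of *Dmc1* is chr15:79605110-79605309 and that of *Taf7l* is chrX:134476491-134476690, all on the minus strand. No E-box overlapped an E2F site in these 6 stretches. A match of letters is a description of the sequence and was not tested as a binding site.

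Library totals ran from 25081647 to 68996146 counts, and 37 of the 38 genes had at least 10 counts in every library (the lowest single count, 9, was in *Terb1*). All 38 genes passed the filter on low counts in every comparison. Germ cell markers were present in all pools: 17 of them summed to 1699 to 2404 CPM (counts scaled to the size of the library) in the 6 F1 pools and to 680 to 1557 CPM in the 6 F3 pools. The 7 blood genes summed to 5230 to 18735 CPM in F1 and to 45405 to 83505 CPM in F3. Y-linked genes (4 in the list) summed to 174 to 284 CPM in all 12 pools and *Xist* did not exceed 1.52 CPM. Skeletal muscle genes (8 in the list) reached 536 CPM in F1 *thia* replicate 2 against 23.9 to 231 CPM elsewhere.

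The transcript levels spanned a wide range in F1 control testes. On the scale of CPM per kilobase of exon, 11 genes lay above 10, 18 between 1 and 10 and 9 below 1, and the highest gene was 215 times the lowest. The top of the order was held by *Stag3*, a cohesin subunit (29.7 CPM per kilobase), *Mnd1*, a partner of the strand exchange recombinases (24.2), *Tex15*, which acts in break repair and in silencing of retroelements in fetal male germ cells (23.6), *Brdt*, a testis-specific bromodomain protein (21.7), *Sycp3*, a lateral element protein (19.3), and *Tex14*, a protein of the intercellular bridges between germ cells (18.8). The 9 genes below 1 CPM per kilobase came from several roles and were *Meiob* (0.976), *Msh5* (0.824), *Hormad2* (0.778), *Msh4* (0.533), *Prdm9* (0.481), *Mei1* (0.426), *Terb2* (0.368), *Mei4* (0.342) and *Terb1* (0.138). Neighbours in this order mostly could not be separated: the 3 F1 control pools overlapped for 32 of the 37 neighbouring pairs. The clear steps were below *Syce2*, *Trip13*, *Psmc3ip*, *Ythdc2* and *Mei4*. Genes with both promoter motifs had a median level of 16.7 CPM per kilobase (n = 6), those with the E-box alone 7.22 (n = 4), those with the E2F letters alone 1.93 (n = 6) and those with neither 3.27 (n = 16), and all 4 ranges overlapped.

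**Figure D1:**
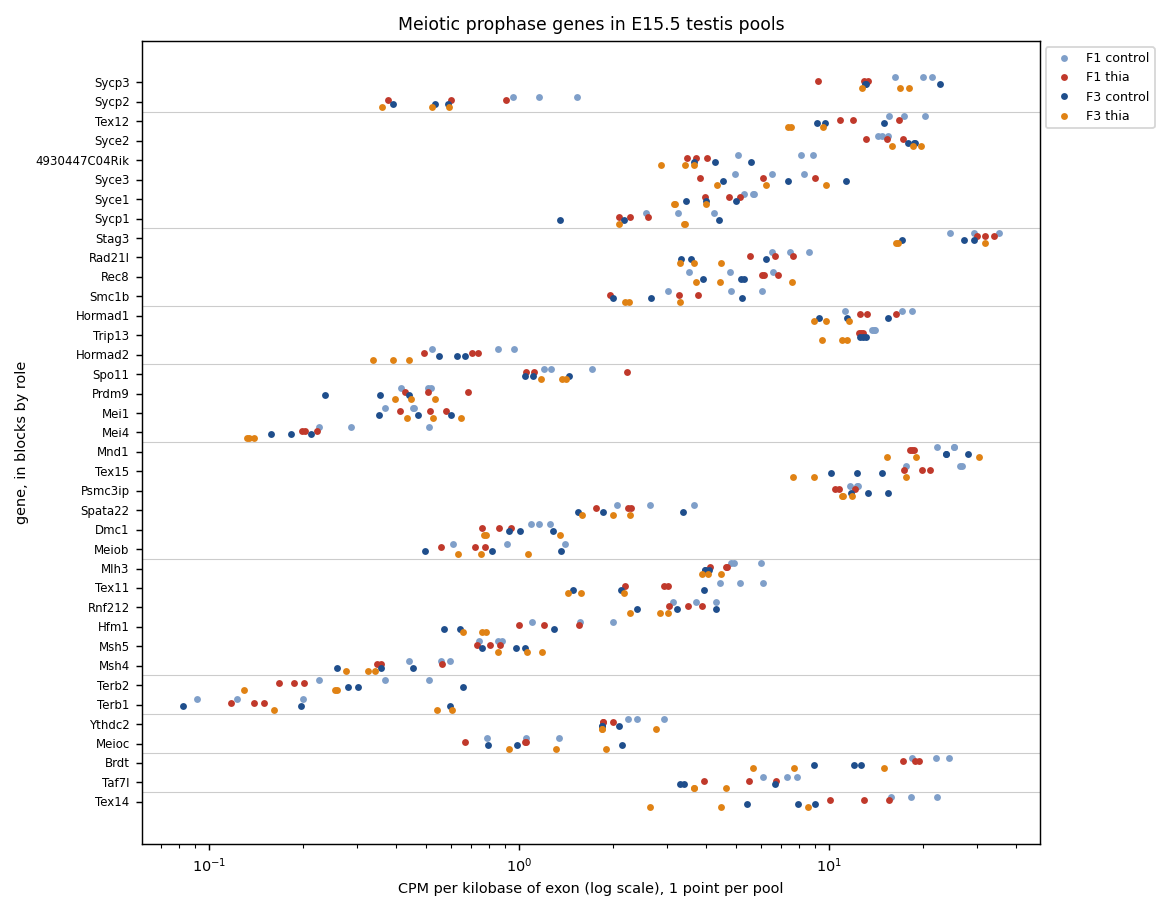
Level of each of the 38 genes in CPM per kilobase of exon (horizontal axis, log scale) in the 12 pools, 1 point per pool, coloured by group, with genes in blocks by role and sorted within a block by their F1 control mean. *Stag3*, *Mnd1*, *Tex15* and *Brdt* have F1 control means above 20 while *Terb1* lies near 0.138, and the 4 groups of a gene mostly overlap on this scale.

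In directly exposed F1 testes most of the 38 genes had lower levels than in controls. The genes share the same 3 pools per group, so their number is not a number of replicates. For the median log2 CPM of the 38 genes, the SD between pools of a group was 0.313, pooled over the 4 groups. The list was chosen with earlier results of these data known, so its shares are descriptions. Of the 38 genes, 31 had a lower level in F1 *thia*, while 48.0% of all genes tested did, and the median log2 fold change was -0.26 against 0.01 over all genes. The lowest log2 fold changes were those of *Terb2* (-0.97), *4930447C04Rik* (-0.96), *Tex11* (-0.94), *Sycp2* (-0.94) and *Sycp3* (-0.69). The 8 synaptonemal complex genes ranged from -0.96 to 0.05, with *Syce1* at -0.26, *Syce3* at -0.07 and *Syce2* at 0.05. With the edgeR quasi-likelihood test 0 of the 38 genes passed a false discovery rate (FDR) of 0.15 (smallest adjusted p = 0.201, *Tex11*), where 0.0105% of all 19137 genes did. Before adjustment, 12 genes (31.6%) had p under 0.05 and all 12 were lower, where 8.76% of all genes had such a p and 4.13% had it and were lower. The 12 were *Tex11*, *4930447C04Rik*, *Sycp3*, *Mnd1*, *Tex14*, *Sycp2*, *Ythdc2*, *Terb2*, *Sycp1*, *Tex12*, *Smc1b* and *Dmc1*. The 3 *thia* pools lay entirely below the 3 control pools for 13 genes and entirely above for 0 genes, where 15.0% of all genes were separated, 8.45% with *thia* lower and 6.55% with *thia* higher. The Wald test of DESeq2 called 6 genes at the same FDR, all lower (*Tex11*, *4930447C04Rik*, *Sycp3*, *Sycp2*, *Tex14* and *Mnd1*), against 1.01% of all genes called and 0.525% called lower. In these bulk samples fewer germ cells, less RNA per germ cell and RNA from other cell types cannot be told apart.

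Single pools of both groups carried much weight in F1. F1 control replicate 1 was the lowest of the 3 control pools for 28 of the 38 genes (73.7%), against 32.3% of all genes tested. Without it, 2 genes passed the edgeR test (*4930447C04Rik* and *Tex11*), against 0.102% of all genes, and 19 had an unadjusted p under 0.05, against 11.7% of all genes. Without F1 control replicate 3 there were 7 with such a p, against 5.95% of all genes. F1 *thia* replicate 3 was the lowest of the 3 *thia* pools for 24 of the 38 genes (63.2%), against 34.0% of all genes tested. Leaving out that *thia* pool gave 8 genes with such a p, against 5.15% of all genes, and a median of -0.18. Across the 6 fits that left out a pool the median stayed between -0.36 and -0.18. The 6 germ cell genes used below as a scaling reference were also lower in F1 *thia* (log2 fold changes of -0.65 to -0.02, median -0.15). Their geometric mean was 161 to 220 CPM in control and 148 to 173 CPM in *thia* pools, so that the groups overlapped. Of these 6 genes, 2 had an unadjusted p under 0.05 with edgeR, both lower (33.3%, against 8.76% of all genes). DESeq2 called 2 of the 6 at the FDR of 0.15, both lower, against 1.01% of all genes called. In F1 the macrophage sum was higher in *thia* without overlap (65.8 to 81.2 CPM against 53.7 to 63.2 CPM) and the Y-linked sum lower (179 to 194 CPM against 200.3 to 284 CPM), the other cell type sums overlapped, and their part in the F1 values was not tested.

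In F3 testes the median fold change of the same genes was also below 0, but not in every fit. The test of the difference from F1 is given further below. Of the 38, 28 were lower in F3 *thia* than in F3 control (49.4% of all genes were), with a median log2 fold change of -0.18 against 0.00437 over all genes. With edgeR 0 genes passed an FDR of 0.1 (smallest adjusted p = 0.154, *Trip13*), as did 0.0% of all 18539 genes, and DESeq2 called 0 of the 35 genes for which it gave an adjusted p, against 14.9% of all genes. Before adjustment, 3 genes had p under 0.05, all lower (*Trip13*, *Hormad2* and *4930447C04Rik*), which is 7.89% of the list against 21.1% of all genes (10.0% lower). The groups were separated for 5 genes (*Trip13*, *Hormad2*, *4930447C04Rik*, *Mei4* and *Terb2*), all with *thia* lower, or 13.2% against 27.3% of all genes (13.9% with *thia* lower). Both shares were close to or below the background. F3 control replicate 1 was the highest control pool for 28 of the 38 genes (73.7%, against 32.0% of all genes tested). Without it 17 genes were lower and 21 higher, and the median was 0.02 against 0.00242 over all genes. Marker sums of other cell types also differed between the F3 groups without overlap. The 6 fetal Leydig cell genes summed to 2184 to 3621 CPM in control and 3819 to 6934 CPM in *thia*, the 6 endothelial genes to 157 to 178 and 235 to 281 CPM, and the 6 adrenal genes to 17.6 to 26.0 and 28.2 to 62.5 CPM. The 4 Y-linked genes were lower in F3 *thia* (174 to 197 CPM against 199 to 213 CPM). The germ cell sum overlapped, at 1012 to 1557 CPM in control and 680 to 1402 CPM in *thia*, and no gene of these lists was at 0 in any pool. The part of these cell types in the F3 values was not tested.

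**Figure D2:**
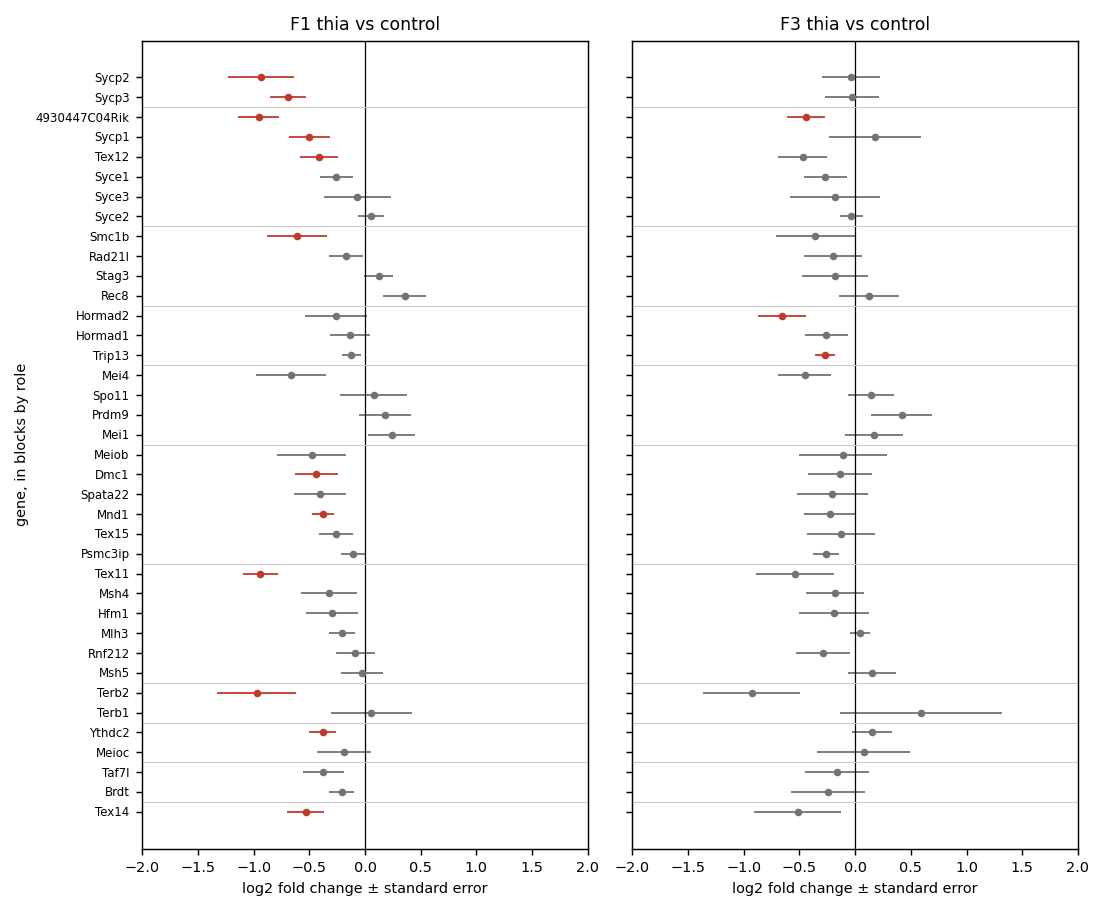
Log2 fold change of *thia* over control ± standard error for the 38 genes in F1 (left) and F3 (right), from the edgeR fit within each generation, in blocks by role. Genes with an unadjusted p under 0.05 are red: 12 in F1 and 3 in F3, all to the left of 0.

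The lateral element genes had some of the lowest F1 *thia* levels relative to control. *Sycp3* (chr10:88459569-88473236) encodes a core protein of the chromosome axis. Its level was 20.6, 27.2 and 25.3 CPM in F1 control, 16.8, 16.3 and 11.7 CPM in F1 *thia*, 28.8, 16.6 and 16.4 CPM in F3 control and 16.1, 22.9 and 21.4 CPM in F3 *thia*. All F1 *thia* pools lay below all F1 controls, while in F3 the groups overlapped and control replicate 1 was highest. The log2 fold change was -0.69 ± 0.16 (SE) in F1 (edgeR adjusted p = 0.428, DESeq2 adjusted p = 0.00907) and -0.03 ± 0.24 in F3. *Sycp3* has exon sequence in common with *Chpt1* on the opposite strand (up to 420 bases), and whether counting used strand is not given in the sources used here, so some of its counts may belong to that gene. *Chpt1* had a log2 fold change of -0.19 in F1. *Sycp2* (chr2:178345293-178407685), the larger partner of *Sycp3* in the lateral element, stood at 5.46, 6.66 and 8.82 CPM in F1 control, 5.21, 3.45 and 2.16 in F1 *thia*, 3.07, 2.24 and 3.37 in F3 control and 2.07, 2.99 and 3.40 in F3 *thia*. The F1 groups did not overlap, and *thia* replicate 3 was the lowest of all 12 pools but one. The F1 log2 fold change was -0.94 ± 0.30 (edgeR adjusted p = 0.507, DESeq2 adjusted p = 0.0845), and that in F3 was -0.04 ± 0.26.

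Among the transverse filament and central element genes, 5 of 6 were lower in F1 *thia* and 5 of 6 in F3 *thia*. Of all genes, 48.0% and 49.4% were. With the germ cell scaling described below 4 and 2 of the 6 were lower, against 13.5% and 11.9% of all genes. *4930447C04Rik* (chr12:72881109-72940774), the file's symbol for the gene of the central element protein SIX6OS1, was at 22.9, 36.5 and 40.2 CPM in F1 control, 16.9, 18.2 and 15.7 CPM in F1 *thia*, 25.2, 19.4 and 16.6 CPM in F3 control and 15.499, 13.0 and 16.5 CPM in F3 *thia*. The *thia* pools were below the controls in both generations, in F3 only narrowly, and the 3 F1 *thia* pools were close to each other while the controls were spread. Its log2 fold change was -0.96 ± 0.18 in F1 (edgeR adjusted p = 0.310, DESeq2 adjusted p = 9.26e-05) and -0.44 ± 0.17 in F3 (edgeR adjusted p = 0.201, DESeq2 adjusted p = 0.120). Its neighbour *Six6*, which overlaps it on the other strand, had at most 34 counts. *Sycp1*, the transverse filament protein that spans the gap between axes, gave 8.78, 11.2 and 14.6 CPM in F1 control, 8.95, 7.83 and 7.23 in F1 *thia*, 15.1, 4.64 and 7.47 in F3 control and 7.23, 11.8 and 11.7 in F3 *thia*. The F1 groups touched, since control replicate 1 lay below *thia* replicate 1, and the F3 control pools alone covered the whole F3 range. The fold changes on the log2 scale were -0.50 ± 0.18 and 0.18 ± 0.42.

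*Tex12*, a central element subunit, was at 15.8, 17.7 and 20.7 CPM in F1 control, 17.0, 11.0 and 12.1 in F1 *thia*, 15.3, 9.84 and 9.25 in F3 control and 9.73, 7.45 and 7.62 in F3 *thia*, with 1 overlapping *thia* pool in each generation. *Syce1*, which joins the filaments to the central element, was at 7.74, 8.37 and 8.31 CPM in F1 control, 6.93, 7.51 and 5.80 in F1 *thia*, 7.29, 5.85 and 5.02 in F3 control and 5.84, 4.63 and 4.61 in F3 *thia*. The F1 *thia* pools lay below all 3 F1 controls for *Syce1*, and the F3 groups overlapped. *Syce2*, the partner of *Tex12*, behaved differently, at 26.4, 25.3 and 24.5 CPM in F1 control, 22.4, 26.1 and 29.5 in F1 *thia*, 30.5, 32.3 and 31.9 in F3 control and 27.1, 33.8 and 31.8 in F3 *thia*. Its groups overlapped within each generation (log2 fold changes 0.05 ± 0.12 and -0.03 ± 0.10), and its F3 controls were all above its F1 controls. The remaining gene, *Syce3*, ranged from 2.12 to 6.27 CPM with overlapping groups.

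**Figure D3:**
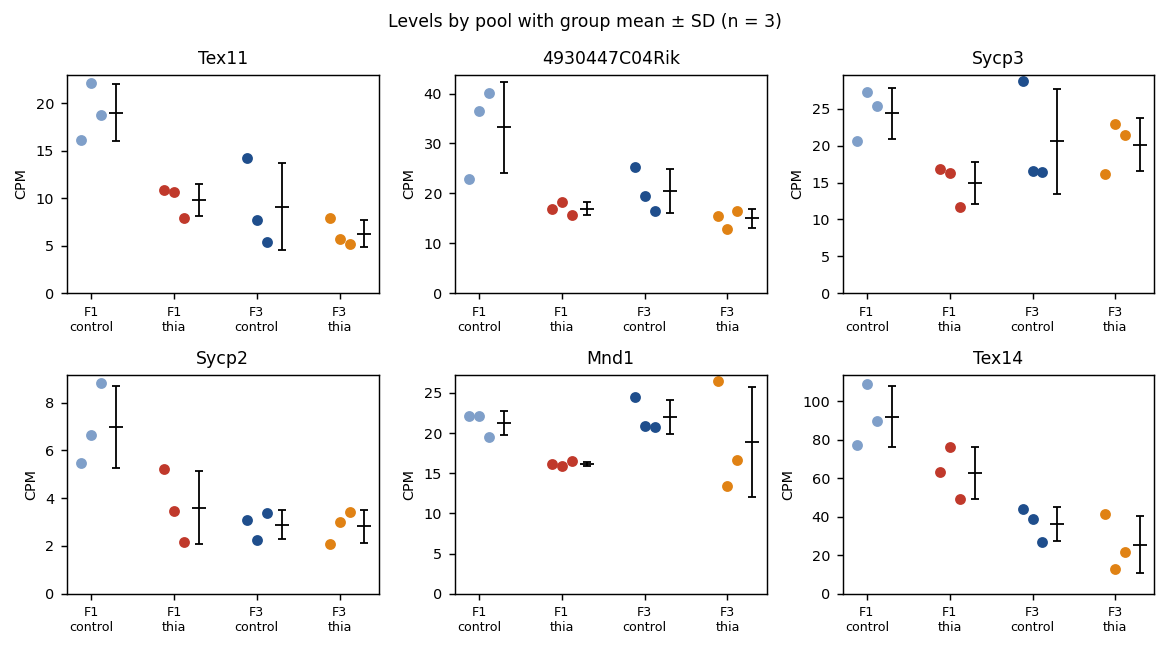
CPM of the 6 genes called by DESeq2 in F1, 1 point per pool, with the group mean ± SD (n = 3) in black and each vertical axis starting at 0. The 3 F1 *thia* points lie below the 3 F1 control points in every panel, and the F3 groups overlap except for *4930447C04Rik*.

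The meiotic cohesin genes split by member. *Rec8*, the meiotic kleisin that closes the cohesin ring, was at 10.5, 14.4 and 7.71 CPM in F1 control, 14.9, 13.4 and 13.2 in F1 *thia*, 11.6, 11.4 and 8.53 in F3 control and 16.6, 9.73 and 8.12 in F3 *thia*. The F1 groups overlapped by 1 control pool, and the F1 log2 fold change was 0.35 ± 0.19 (edgeR adjusted p = 0.609), the highest of the 38 genes. *Rad21l*, a second meiotic kleisin, was at 10.9, 12.4 and 14.3 CPM in F1 control, 12.7, 11.1 and 9.20 in F1 *thia*, 10.3, 5.96 and 5.53 in F3 control and 7.43, 5.47 and 6.08 in F3 *thia*, with overlap in both generations. *Stag3* ranged from 76.1 to 163 CPM over the 12 pools (log2 fold changes 0.12 ± 0.13 in F1 and -0.18 ± 0.30 in F3), and *Smc1b*, the meiotic SMC subunit, from 7.93 to 24.5 CPM (-0.61 ± 0.27 and -0.36 ± 0.35).

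The HORMA domain proteins mark unsynapsed axes, and *Trip13* is the ATPase that removes them. *Trip13* (chr13:73911347-73937784) was at 47.5, 47.7 and 46.8 CPM in F1 control, 42.3, 42.9 and 43.8 in F1 *thia*, 43.5, 42.8 and 44.5 in F3 control and 38.9, 37.4 and 32.2 in F3 *thia*. Replicates were tight, and the *thia* pools lay below the controls in both generations, by -0.12 ± 0.08 and -0.27 ± 0.09 on the log2 scale. Neither passed with edgeR within its generation (adjusted p = 0.657 and 0.154), but in a fit of all 12 libraries *Trip13* was the 1 gene of the 38 to pass in F3 (adjusted p = 0.0699), which is 2.63% of the list against 9.86% of all genes in that fit. *Hormad2* (chr11:4345814-4441105) was at 1.16, 2.13 and 1.89 CPM in F1 control, 1.63, 1.56 and 1.10 in F1 *thia*, 1.40, 1.48 and 1.22 in F3 control and 0.977, 0.748 and 0.869 in F3 *thia*. Its F3 groups were separated, with a log2 fold change of -0.66 ± 0.21 (edgeR adjusted p = 0.156), and its F1 groups overlapped. *Hormad1* ranged from 15.459 to 31.9 CPM with overlapping groups in both generations.

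Of the 4 genes of break formation, 1 was lower and 3 were higher in *thia* in each generation. Of all genes, 48.0% (F1) and 49.4% (F3) were lower. With edgeR, 0 of the 4 had an unadjusted p under 0.05, against 8.76% of all genes in F1 and 21.1% in F3. *Spo11*, the transesterase that cuts the DNA, was at 2.21, 3.02 and 2.11 CPM in F1 control, 3.91, 1.96 and 1.84 in F1 *thia*, 2.54, 1.94 and 1.83 in F3 control and 2.07, 2.42 and 2.49 in F3 *thia*. *Prdm9*, the histone methyltransferase that places the breaks, was at 1.55, 1.94 and 1.89 CPM in F1 control, 1.89, 2.55 and 1.60 in F1 *thia*, 1.64, 1.32 and 0.877 in F3 control and 1.48, 1.99 and 1.66 in F3 *thia*. For both genes the groups overlapped in each generation, with log2 fold changes of 0.08 ± 0.30 and 0.14 ± 0.21 for *Spo11* and 0.18 ± 0.24 and 0.42 ± 0.27 for *Prdm9*. *Mei4*, a *Spo11* accessory protein, was at 0.931, 1.18 and 2.11 CPM in F1 control, 0.918, 0.818 and 0.837 in F1 *thia*, 0.651, 0.755 and 0.877 in F3 control and 0.545, 0.576 and 0.554 in F3 *thia*. Its *thia* pools lay below the controls in both generations (-0.67 ± 0.32, adjusted p = 0.584, and -0.45 ± 0.24, adjusted p = 0.325, edgeR), at levels of 20 counts upward. *Mei1*, needed for break formation, ranged from 1.67 to 3.08 CPM.

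Of the 6 strand invasion genes, all 6 were lower in *thia* in both generations, where 48.0% (F1) and 49.4% (F3) of all genes were. With germ cell scaling 5 were lower in F1 and 0 in F3, against 13.5% and 11.9% of all genes. With edgeR, 2 of the 6 had an unadjusted p under 0.05 in F1, against 8.76% of all genes. *Mnd1* (chr3:84087933-84155786), which with *Psmc3ip* assists strand exchange by *Dmc1*, was at 22.1, 22.1 and 19.5 CPM in F1 control, 16.1, 15.9 and 16.5 in F1 *thia*, 24.5, 20.8 and 20.8 in F3 control and 26.5, 13.5 and 16.6 in F3 *thia*. The F1 groups were narrow and separated (-0.38 ± 0.10, edgeR adjusted p = 0.446, DESeq2 adjusted p = 0.147), whereas F3 *thia* contained both the highest and the lowest of the 12 pools. *Dmc1*, the meiotic recombinase, was at 2.42, 2.58 and 2.78 CPM in F1 control, 1.69, 2.08 and 1.90 in F1 *thia*, 2.85, 2.05 and 2.23 in F3 control and 1.70, 1.73 and 3.01 in F3 *thia*. The F1 groups did not overlap (-0.44 ± 0.19, edgeR adjusted p = 0.563) and the F3 groups did. *Tex15*, the most abundant of this block, was at 170.0, 254 and 257 CPM in F1 control, 204, 192 and 168 in F1 *thia*, 119, 143 and 97.5 in F3 control and 169.9, 73.6 and 85.8 in F3 *thia*. Its groups overlapped within each generation, and F3 *thia* replicate 1 stood far above the other 2 *thia* pools. *Psmc3ip* ranged from 13.5 to 19.9 CPM, *Meiob*, a single-strand binding protein, from 0.890 to 2.52 and its partner *Spata22* from 1.97 to 4.68. *Psmc3ip* (log2 fold changes -0.11 in F1 and -0.26 in F3) overlaps *Mlx* on the opposite strand by up to 385 bases, with the same limit as for *Sycp3*. *Mlx* stood at -0.09 in F1 and -0.29 in F3. Its F3 *thia* pools lay below its F3 controls (edgeR adjusted p = 0.126, DESeq2 adjusted p = 0.0770).

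**Figure D4:**
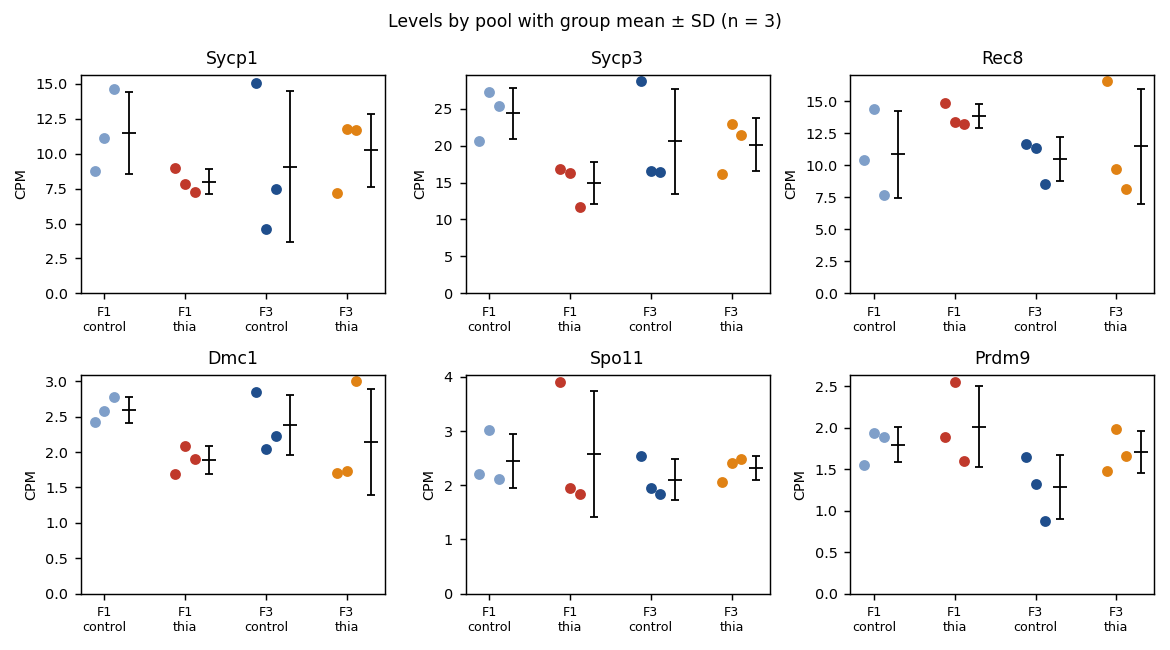
CPM of *Sycp1*, *Sycp3*, *Rec8*, *Dmc1*, *Spo11* and *Prdm9* by pool, with the group mean ± SD (n = 3) in black and each vertical axis starting at 0. F1 *thia* lies below F1 control for *Sycp3* and *Dmc1*, while the groups of *Sycp1*, *Rec8*, *Spo11* and *Prdm9* overlap in both generations.

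Crossover genes held the gene with the smallest p in F1. *Tex11* (chrX:100838648-101059667), an X-linked protein that promotes crossing over and synapsis, was at 16.1, 22.1 and 18.7 CPM in F1 control, 10.9, 10.6 and 7.93 in F1 *thia*, 14.2, 7.69 and 5.39 in F3 control and 7.89, 5.73 and 5.20 in F3 *thia*. The lowest F1 control pool was above the highest F1 *thia* pool by a wide margin, and the F3 groups overlapped. The log2 fold change was -0.94 ± 0.16 in F1 (edgeR adjusted p = 0.201, DESeq2 adjusted p = 2.29e-05) and -0.54 ± 0.35 in F3 (edgeR adjusted p = 0.425). The edgeR adjusted p in F1 ranged from 0.114 to 0.631 when single pools were left out. *Mlh3*, part of the nuclease that resolves crossovers, was at 26.7, 27.4 and 33.4 CPM in F1 control, 25.8, 26.1 and 23.0 in F1 *thia*, 22.1, 22.7 and 22.1 in F3 control and 24.9, 22.6 and 21.6 in F3 *thia*. *Hfm1*, a DNA helicase, was at 5.71, 8.12 and 10.4 CPM in F1 control, 6.24, 8.06 and 5.16 in F1 *thia*, 6.70, 2.97 and 3.35 in F3 control and 4.05, 3.94 and 3.42 in F3 *thia*. For *Mlh3* the F1 *thia* pools lay below all 3 controls, and the other within-generation groups of both genes overlapped. The MutS pair *Msh4* (0.957 to 2.21 CPM) and *Msh5* (2.13 to 3.45 CPM), which stabilises crossover intermediates, and *Rnf212* (3.39 to 6.45 CPM), which sets their number, had no unadjusted p under 0.05 in F1 or F3.

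The telomere proteins *Terb1* and *Terb2* were weakly detected, at 0.243 to 1.78 CPM and 0.273 to 1.40 CPM. *Terb2* was lower in *thia* in both generations (-0.97 ± 0.35, edgeR adjusted p = 0.518, and -0.93 ± 0.44, adjusted p = 0.275), but with as few as 12 counts in a library. Of the RNA regulators of meiotic entry, *Meioc* ranged from 3.08 to 9.93 CPM. Its partner *Ythdc2*, an RNA helicase that reads methylated adenosine, was at 16.1, 17.3 and 21.1 CPM in F1 control, 14.5, 13.5 and 13.5 in F1 *thia*, 13.3, 13.3 and 15.1 in F3 control and 13.3, 19.9 and 13.3 in F3 *thia*. The F1 groups were separated (-0.38 ± 0.12, edgeR adjusted p = 0.510), and in F3 only *thia* replicate 2 stood apart, above the rest.

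*Brdt*, which reads acetylated histones, was at 93.7, 124 and 112 CPM in F1 control, 87.3, 98.7 and 96.0 in F1 *thia*, 60.7, 64.0 and 45.2 in F3 control and 76.0, 28.6 and 39.0 in F3 *thia*. *Taf7l*, an X-linked germ cell form of a general transcription factor subunit, was at 12.3, 14.6 and 15.8 CPM in F1 control, 13.5, 11.1 and 7.90 in F1 *thia*, 13.4, 6.82 and 6.59 in F3 control and 7.32, 9.27 and 7.36 in F3 *thia*. Both overlapped within each generation, with F1 log2 fold changes of -0.21 ± 0.11 and -0.38 ± 0.19. *Tex14* (chr11:87405065-87555823) was at 77.2, 109 and 89.7 CPM in F1 control, 63.3, 76.1 and 49.2 in F1 *thia*, 43.8, 38.7 and 26.6 in F3 control and 41.6, 12.9 and 21.9 in F3 *thia*. The F1 groups were separated by a narrow gap (-0.53 ± 0.16, edgeR adjusted p = 0.503, DESeq2 adjusted p = 0.111), and F3 *thia* replicate 2 was the lowest of all pools (-0.51 ± 0.39 in F3).

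The F3 pools did not move as a block, which was noted after the values were seen. Of the 3 F3 *thia* pools, replicate 1 was highest for 15 of the 38 genes (39.5%, against 34.1% of all genes tested). It was lowest for 17 of them (44.7%, against 33.9% of all genes). The genes named next are examples picked from the 38. In F3 *thia*, replicates 2 and 3 were low for *Stag3* (77.3 and 76.1 CPM against 148 CPM in replicate 1), *Tex15*, *Brdt* and *Tex14*. The same 2 pools were high for *Terb1* (1.78 and 1.60 CPM against 0.477 CPM in replicate 1), *Sycp1* and *Sycp3*. The geometric mean of the 6 germ cell reference genes was 116, 62.6 and 76.2 CPM in F3 *thia* replicates 1, 2 and 3, and 121, 109 and 80.5 CPM in the F3 controls. Its part in these patterns was not tested.

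The direct test of whether the *thia* effect differed between generations called 0 of the 38 genes (edgeR, FDR 0.1), where 0.0051% of all 19626 genes were called, and DESeq2 called 0 of the 27 genes with an adjusted p, against 4.74% of all genes. Before adjustment, 1 gene had p under 0.05 (2.63%, against 14.0% of all genes), *Ythdc2*, whose F3 effect exceeded its F1 effect by 0.55 ± 0.22 on the log2 scale (edgeR adjusted p = 0.302). Next came *Sycp3* (0.68 ± 0.32, edgeR adjusted p = 0.360) and *Sycp2* (0.92 ± 0.44, adjusted p = 0.367), both lateral element genes whose F3 fold changes were near 0. The F3 effect was the higher for 25 of the 38 genes and the lower for 13 (47.8% of all genes), with a median difference of 0.15 against 0.02 over all genes.

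Between the 2 control groups the levels themselves differed, for about the same share of the 38 genes as of all genes. F3 controls had lower levels than F1 controls for 29 of the 38 genes (51.4% of all genes were lower), and 15 passed an FDR of 0.1 with edgeR (39.5%, against 42.3% of all genes): 14 fell and *Syce2* rose. Of all genes, 22.4% fell at that FDR. DESeq2 also called 15, again 14 lower and 1 higher, against 40.5% of all genes called and 21.3% called lower. The 14 were *4930447C04Rik*, *Brdt*, *Hfm1*, *Mei4*, *Mlh3*, *Rad21l*, *Syce1*, *Sycp2*, *Taf7l*, *Tex11*, *Tex12*, *Tex14*, *Tex15* and *Ythdc2*. The largest changes were in *Tex14* (-1.34 ± 0.33, edgeR adjusted p = 0.00910), *Sycp2* (-1.27 ± 0.31, adjusted p = 0.00905), *Tex11* (-1.06 ± 0.29, adjusted p = 0.0151), *Brdt* (-0.96 ± 0.27, adjusted p = 0.0176) and *Tex15* (-0.92 ± 0.27, adjusted p = 0.0201). *Syce2* was higher by 0.31 ± 0.11 (adjusted p = 0.0440). The pools of the 2 groups were separated for 13 genes (34.2%, against 48.8% of all genes). The 6 germ cell reference genes had a median log2 change of -0.85 in the same comparison, with a range of -1.62 to -0.10, and blood genes were several times higher in F3. Generation and the making of the libraries cannot be told apart here. Without F1 control replicate 3, 9 of the 38 genes passed (23.7%, against 35.1% of all genes).

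Scaling to other germ cell genes moved the medians of all 3 comparisons upward. When each library was scaled to the geometric mean of *Ddx4*, *Dazl*, *Dnd1*, *Piwil2*, *Tdrd1* and *Mael*, germ cell genes outside the list, in place of its total, 21 of the 38 genes were lower in F1 *thia* (13.5% of all genes were) and 17 higher, and the median was -0.01, while the median of all genes moved to 0.24. Of the 38 genes, 2 then passed the FDR of 0.15, both lower (5.26%, against 2.95% of all genes called and 0.272% called lower): *4930447C04Rik* (log2 fold change -0.69, edgeR adjusted p = 0.0663) and *Tex11* (-0.70, adjusted p = 0.0688). *Sycp2* (-0.71, adjusted p = 0.182) and *Sycp3* (-0.45, adjusted p = 0.329) remained low without passing, and *Rec8* was high (0.60, adjusted p = 0.172). In F3 the same scaling put 30 of the 38 genes higher in *thia* and 8 lower (11.9% of all genes were lower), with a median of 0.20 against 0.34 over all genes, and 0 passed (0.216% of all genes did). In the comparison of controls it put 34 of the 38 higher in F3 and 4 lower (4.52% of all genes were lower), with 20 called, all higher (52.6%, against 75.9% of all genes), and a median of 0.59 against 0.91 over all genes. The direction of the F3 and control comparisons thus depends on whether a level is scaled to the library or to these 6 germ cell genes. The 6 genes did not move together. Between controls their log2 changes ranged from -0.71 to 0.82 under their own scaling. Of the 6, 1 was called lower and 1 higher there, against 75.9% of all genes called.

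**Figure D5:**
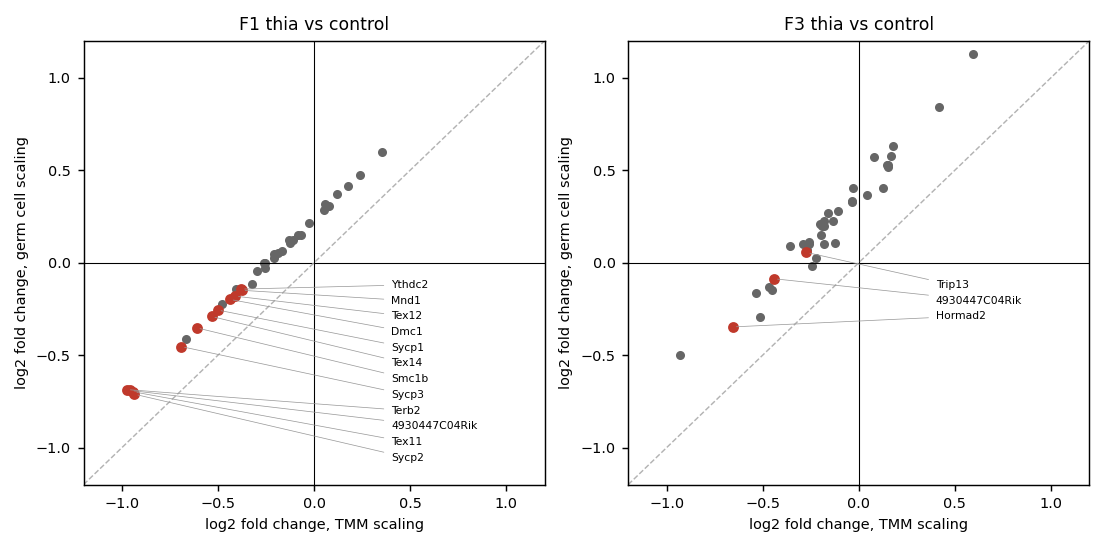
Log2 fold change of *thia* over control under TMM scaling (horizontal) and under germ cell scaling (vertical) for the 38 genes in F1 (left) and F3 (right), with the dashed line marking equal values and genes with an unadjusted p under 0.05 under TMM in red. In F1, *4930447C04Rik*, *Tex11*, *Sycp2* and *Terb2* stay below -0.6 on the vertical axis, and in F3, 30 genes lie above 0 on it.

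A wider list of 51 meiotic prophase genes outside the 38 was set beside them. In F1, 39 of the 51 were lower in *thia* (48.0% of all genes were) and 0 passed with edgeR. Of the 51, 6 had an unadjusted p under 0.05, all lower (11.8%, against 8.76% of all genes). The 3 with the smallest p were *Ankrd31*, a break formation protein (-0.78 ± 0.22, edgeR adjusted p = 0.446), *Hells*, a chromatin remodeller (-0.35 ± 0.12, adjusted p = 0.518), and *Mcmdc2*, a recombination factor related to the replicative helicase (-0.64 ± 0.23, adjusted p = 0.518). DESeq2 called 1 of the 51, *Ankrd31*, against 1.01% of all genes. In F3, 30 of the 50 genes tested were lower (49.4% of all genes were) and 0 passed with edgeR. Of the 50, 7 had an unadjusted p under 0.05, 6 of them lower (14.0%, against 21.1% of all genes). Among those lower were *Skp1a*, a ubiquitin ligase subunit (-0.36 ± 0.10, edgeR adjusted p = 0.128), and *Adad1*, a germ cell RNA-binding protein (-0.83 ± 0.26, adjusted p = 0.145). DESeq2 called 4 of the 44 genes of this list for which it gave an adjusted p in F3, all lower, against 14.9% of all genes called and 5.7% called lower. Between controls 20 of the 51 passed with edgeR, of which 19 fell in F3 (39.2% called, against 42.3% of all genes). These directions turned with germ cell scaling, under which 15 genes were lower and 36 higher in F1 (median 0.14 against 0.24 over all genes), 11 lower and 39 higher in F3 (0.23 against 0.34), and 33 called higher and 1 lower between controls (75.9% of all genes called).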

How the data were processed

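RNA-seq was available for 12 pools, 3 per group, and groups were taken from the sample labels. The authors made strand-specific paired-end libraries, mapped reads to mm10 with HISAT2 (2.1.0 in the submitters' notes) and deposited raw read counts per gene symbol from featureCounts with a UCSC refGene annotation. The counts were used as deposited, and 0 rows lacked a gene. In R 4.3.3, edgeR 4.0.16 was fitted across all genes: TMM scaling, filterByExpr with a minimum count of 10, quasi-likelihood F-test and Benjamini-Hochberg adjustment, within each generation for *thia* against control (FDR 0.15 in F1, 0.1 in F3) and over all 12 libraries for the difference of effects and the comparison of controls (FDR 0.1). The standard errors given are the absolute log2 fold change divided by the square root of its F statistic. DESeq2 1.42.0 was the alternative test. Levels are TMM-scaled CPM over 12 libraries, and before TMM scaling 1 CPM equalled 25.1 to 69.0 counts. Exon lengths came from GENCODE M21 and promoters from RefSeq. Scripts were tested on simulated data. The genes and lists were chosen with earlier results of these data known. Values in every pool are given for genes called in any comparison, the 3 smallest p-values in each and 6 fixed genes, and the others by range. The values of 1 gene that this rule names are not reported here, though it stays in the counts of its list. Replicates differed by more than counting noise (chi-square per degree of freedom 17.3 to 101 over 12 pairs), but the labels do not tie pools to litters or breeding rounds. Same-numbered pools did not deviate together. P-values cover the spread between pools, which may be partly technical. CPM precision covers counting error only.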

Additional observations from a re-analysis of the deposited data

How the results depend on the processing

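With 3 pools per group, small differences could pass only when replicates were tight, and genes under 1 CPM rested on as few as 9 counts. The directions reported for F1 held under every scaling tried except germ cell scaling, where lower and higher genes were near even in number among the 38 and the wider list of 51 turned (15 lower and 36 higher). In F1, DESeq2 called 6 genes and a fit without the low-count filter 5 (0.780% of all genes), against 0, and germ cell scaling gave 2 called and 5 at an unadjusted p under 0.05 (12.3% of all genes). In F3, germ cell scaling gave 1 gene at an unadjusted p under 0.05 (9.35% of all genes), a median of 0.20 and 1 separated gene (8.52% of all genes), and turned *Trip13* (0.0553), while the fit of all 12 libraries gave 1 call (9.86% of all genes) and 6 genes at p under 0.05 (22.0% of all genes). For the difference of effects, 3 genes had p under 0.05 with DESeq2 (8.94% of all genes) and 0 with upper quartile scaling (14.7%). The count was 0 with germ cell scaling (2.67% of all genes) and 4 without the filter (10.3%). For the controls, germ cell scaling gave a median of 0.59 (0.91 over all genes) and 22 separated genes (72.5% of all genes) and turned *4930447C04Rik* (0.23), *Hfm1* (0.0106), *Mei4* (0.11), *Mlh3* (0.55), *Rad21l* (0.11), *Syce1* (0.48), *Taf7l* (0.22), *Tex12* (0.24), *Tex15* (0.0126) and *Ythdc2* (0.57), as its construction on genes that were themselves lower in F3 implies. Leaving out single pools gave 0 to 2 calls in F1 (0.0% to 0.102% of all genes), with a median of -0.36 to -0.18. In F3 it gave 0 calls (0.0% to 6.82% of all genes) and a median of -0.29 to 0.02. The difference had 0 calls (0.0% to 0.0198%) and a median of 0.01 to 0.29, and the controls 9 to 20 calls (30.9% to 38.8%) and -0.55 to -0.20. Genes at p under 0.05 numbered 7 to 19 in F1 (5.15% to 11.7% of all genes) and 1 to 8 in F3 (11.9% to 22.3%). They numbered 0 to 5 for the difference (9.02% to 15.6%) and 11 to 21 for the controls (36.3% to 41.5%). With the replicate number as a block, 0 genes were called in F1 and F3 (0.0157% and 0.0% of all genes). At p under 0.05 there were 12 in F1 (7.30% of all genes), 4 in F3 (18.5%) and 0 for the difference (11.4%). Between controls 15 were called (39.5%, against 39.3% of all genes). The numbers do not pair the pools: deviations of same-numbered pools correlated at -0.04, -0.04 and 0.03 in F1 and at 0.19, -0.37 and -0.24 in F3. The causes of these changes were otherwise not tested.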
